A study of Homo sapiens with 4 samples.

Results

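The quinone and aldo-keto reductases examined here are 10 genes chosen by symbol: NQO1, NQO2, AKR1B1, AKR1B10, AKR1C1, AKR1C2, AKR1C3, CBR1, CBR3 and PTGR1. All 10 were among the 23228 genes of the count tables, and 9 of them passed the filter on low counts, which kept 13546 genes. RNA-seq was performed on ES2 cells, an established human ovarian cancer line, that received either vehicle or Liq (liquiritigenin, a plant flavanone used as an ERβ agonist) at 100 μM for 24 h. The dose comes from the methods of the study. Both groups held 2 samples and shared the same medium, without phenol red and with charcoal-treated serum. All samples come from 1 cell line, and no label says that replicates were separate cultures, so p-values measure only the spread between these samples.

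These enzymes use a reduced cofactor, in most cases NADPH, and most of them convert quinones, aldehydes and ketones into less reactive alcohols and hydroquinones. Several of them are textbook targets of NRF2, a transcription factor that binds antioxidant response elements when electrophiles or oxidants disable its inhibitor KEAP1. NQO1 is also a classical target of the aryl hydrocarbon receptor. The AKR1C enzymes inactivate or activate steroid hormones, which makes them of interest in tissues that respond to estrogens and progesterone.

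Liq-treated cells had more mRNA of NQO1, AKR1C1 and AKR1C3 than vehicle-treated cells, by 1.60-fold, 2.80-fold and 1.86-fold. PTGR1 also rose, but by 1.39-fold. The other 5 tested members, NQO2, AKR1B1, AKR1C2, CBR1 and CBR3, did not pass an adjusted p-value of 0.05. Genes counted as called when they differed by 1.5-fold or more with an adjusted p-value under 0.05 (edgeR's quasi-likelihood test with Benjamini-Hochberg adjustment over all 13546 genes). By this rule 3 of the 9 tested members were called, all upward, while 6.45% of all tested genes were called in either direction, 4.29% upward and 2.16% downward. Over all genes 581 calls were upward and 293 downward, and with offsets that follow the expression level the split was 350 to 396. At any fold change, 4 of the 9 members passed the adjusted p-value, all upward, against 24% of all tested genes in either direction, 12.6% upward and 11.3% downward. The groups did not overlap, with both Liq samples above both vehicle samples, in 8 of the 9 tested members and in 31.5% of all tested genes, while a further 30.2% of all genes had both Liq samples below both vehicle samples and 61.7% were separated one way or the other. The 9 members had a median log2 fold change of 0.48, and all tested genes one of 0.01. For 1 gene alone, the exact permutation test in a design of 2 and 2 samples cannot reach a two-sided p-value below 0.3333, and edgeR's p-values draw on a variance estimate moderated over all genes.

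Reads counted on genes numbered 34573053 to 48933893 per sample. At this depth 3 counts, taken as the smallest level the data can show, correspond to 0.0598 to 0.0844 CPM (counts scaled to a common library size after TMM normalization). Entries that the counting tallied as not uniquely aligned made up 35.63% to 36.23% of all entries and were not counted on any gene. Of the ovarian and epithelial markers, KRT7, KRT8 and KRT18 were expressed, with 871 counts or more in every sample. KRT7 was higher with Liq (log2 fold change 0.51, edgeR adjusted p = 1.081e-05) and KRT18 lower (-0.24, edgeR adjusted p = 0.01322). CDH1 had 0 counts in all samples, and EPCAM and KRT19 had 1 to 3. The ovarian markers PAX8 and WT1 were lower with Liq, at 49 and 46 counts in vehicle against 12 and 29 for PAX8 and at 168 and 181 against 98 and 140 for WT1, whereas MUC16 had at most 1 count. Of the leukocyte markers, PTPRC and CD3E had at most 1 count in any sample, whereas CD68 had 2538 to 3331, with a log2 fold change of 0.02. Of the endothelial markers, PECAM1 had 2 to 10 counts and CDH5 had 1712 to 2239, with a log2 fold change of -0.16 (edgeR adjusted p = 0.1673). The hepatocyte gene ALB had 1 in each vehicle sample and 6 and 9 in Liq. The part of these markers in the results below was not tested. ESR2, which encodes ERβ, was near the detection limit at 4 and 7 counts in vehicle and 5 and 14 in Liq, and was not tested. In such bulk samples a change in the share of cells that express a gene and a change in RNA per cell cannot be told apart.

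**Figure D1:**
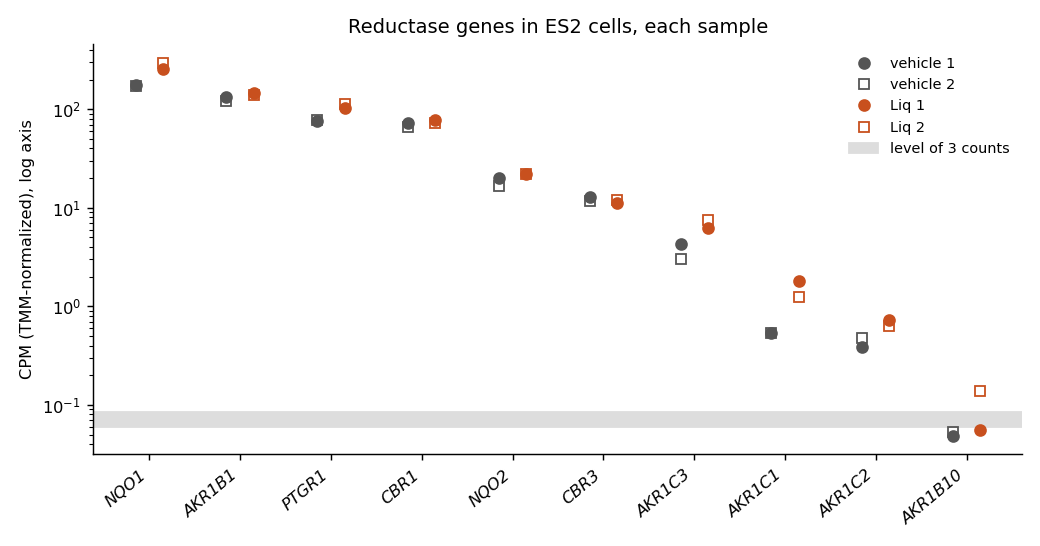
Level of each of the 10 reductase genes in each sample, in CPM on a log axis. Grey symbols are the vehicle samples, orange symbols the Liq samples, and the grey band is the level of 3 counts. NQO1 lies at 172.3 to 297.2 CPM, and AKR1B10 has 2 counts in 3 of the 4 samples.

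NQO1 was the most abundant member by counts. It encodes NAD(P)H:quinone dehydrogenase, which reduces quinones directly to hydroquinones and so avoids the reactive semiquinone. The gene lies on the minus strand of chromosome 16 from 69740899 to 69760571 (GRCh37, GENCODE annotation, as for all genes here). Vehicle samples held 7208 and 6450 NQO1 counts and Liq samples 9207 and 14917, or 175.3, 172.3, 258.9 and 297.2 CPM. Every Liq sample was above every vehicle sample, by 1.48-fold to 1.72-fold, and the vehicle samples differed from each other by only 1.02-fold. The mean rose from 173.8 ± 2.1 CPM to 278.1 ± 27.1 CPM (SD, n = 2). On the log2 scale this was 0.68 (SE 0.07, 95% interval 0.53 to 0.83, adjusted p = 1.144e-07 from edgeR). Without Liq replicate 2, which had the higher NQO1 level, the log2 fold change was 0.57, under the 1.5-fold threshold, with an adjusted p-value of 3.787e-12 from edgeR. NQO1 also took a growing part of the counts of the 10 genes together, at 35.4% and 36.7% in the vehicle samples against 41.3% and 44.5% in the Liq samples. The exact 95% binomial intervals, which cover counting error only, were 34.8% to 36.1% and 36.0% to 37.4% in vehicle and 40.7% to 42.0% and 43.97% to 45.03% in Liq.

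NQO2 encodes the related flavoprotein that takes its electrons from dihydronicotinamide riboside rather than from NADPH. It lies on chromosome 6 from 2988221 to 3019989 and had 824 and 618 counts in vehicle and 792 and 1108 in Liq. The corresponding levels were 20.04, 16.5, 22.3 and 22.1 CPM. The groups did not overlap, but the 2 vehicle samples differed from each other by 1.21-fold, as much as the groups did. The log2 fold change was 0.28 (SE 0.10, 95% interval 0.07 to 0.49), and the adjusted p-value of 0.05073 from edgeR lay at the threshold. It was 0.5847 without vehicle replicate 2 (log2 fold change 0.14) and 0.04076 without vehicle replicate 1 (0.42), and it lay under 0.05 when either Liq sample was left out. It also passed with upper-quartile normalization (0.03927) and under both other filters on low counts (0.04131 and 0.04803), but not with DESeq2 (0.1259). The coding sequences of NQO1 and NQO2 were identical at 51.7% of aligned positions, and no 100-base window of the NQO2 transcript matched another place in the genome with up to 2 mismatches.

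Of the aldose reductase genes, AKR1B1 was strongly expressed and AKR1B10 was barely detected. AKR1B1 encodes aldose reductase, which turns glucose into sorbitol and also clears lipid aldehydes, and lies on chromosome 7 from 134127108 to 134144036. It had 5469 and 4505 counts in vehicle and 5147 and 7072 in Liq, which were 133.0, 120.3, 144.7 and 140.9 CPM. Both Liq samples were above both vehicle samples, by 1.06-fold to 1.20-fold. The log2 fold change of 0.17 (SE 0.07, 95% interval 0.02 to 0.33) did not pass the threshold (adjusted p = 0.09311 from edgeR), and the interval excludes a rise of 1.5-fold. It was 0.10 without vehicle replicate 2 and 0.25 without vehicle replicate 1, and passed neither time. With offsets that follow the expression level the adjusted p-value was 0.02424 (edgeR). AKR1B10, a close relative known for reducing retinal and best known from intestine and liver tumours, lies on the same arm from 134212319 to 134226164. It had 2 counts in each vehicle sample, then 2 and 7 in the Liq samples, too few to test. Because 3 of these 4 values were under the 3 counts taken as the floor, no fold change was computed. The neighbouring paralog AKR1B15 had 0 or 1 count.

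The 3 AKR1C genes encode hydroxysteroid dehydrogenases and lie side by side on chromosome 10, AKR1C1 from 5005445 to 5025475, AKR1C2 from 5029967 to 5060223 on the minus strand and AKR1C3 from 5077546 to 5149878. AKR1C1 inactivates progesterone, AKR1C2 inactivates dihydrotestosterone, and AKR1C3 forms testosterone and estradiol from weaker precursors and also makes F-type prostaglandins. The genes are close copies. The coding sequences of AKR1C1 and AKR1C2, each 969 bases long, were identical at 950 positions (98.0%), and AKR1C3 was identical to AKR1C1 at 886 (91.4%). This bears on every value below, since the libraries were read in single 100-base reads and a read that fits more than 1 place was not counted.

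The following stretch of 100 coding bases is shown because it was identical in all 3 genes, so that a read from it could not be assigned to any of them. It lies at chr10:5014776-5014875 (plus strand) in AKR1C1, chr10:5037577-5037676 (minus strand) in AKR1C2 and chr10:5144677-5144776 (plus strand) in AKR1C3, GRCh37.
AKR1C1, AKR1C2 and AKR1C3: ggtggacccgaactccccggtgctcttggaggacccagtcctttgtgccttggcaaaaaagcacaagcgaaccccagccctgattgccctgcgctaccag
The next stretch is the coding stretch within 1 exon where AKR1C1 and AKR1C2 differed most, and capitals mark bases that differ from AKR1C1. It lies at chr10:5008106-5008205 in AKR1C1, chr10:5043774-5043873 in AKR1C2 and chr10:5138602-5138701 in AKR1C3, GRCh37, on the same strands as above.
AKR1C1: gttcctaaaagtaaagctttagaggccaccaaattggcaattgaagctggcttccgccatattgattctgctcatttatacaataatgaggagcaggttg
AKR1C2: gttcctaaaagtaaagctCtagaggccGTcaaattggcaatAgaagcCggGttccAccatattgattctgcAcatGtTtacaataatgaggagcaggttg
AKR1C3: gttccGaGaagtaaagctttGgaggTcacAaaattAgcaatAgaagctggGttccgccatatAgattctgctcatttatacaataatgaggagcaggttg
AKR1C2 differed from AKR1C1 at 10 of these 100 bases and AKR1C3 at 9, so reads from this stretch can be told apart.

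Over the whole coding sequence, 164 of the 870 possible windows of 100 bases were identical in AKR1C1 and AKR1C2, and 672 differed at 2 bases or fewer. When every coding window was searched against GRCh37 and the transcripts of all other genes, 79.3% of the AKR1C1 windows, 73.4% of the AKR1C2 windows and 90.2% of the AKR1C3 windows had no identical match elsewhere. Allowing up to 2 mismatches, the shares were 18.5%, 22.8% and 80.0%. The true share of countable reads depends on how the aligner ranked near matches, which is not given in the sources used here. For NQO1, NQO2, CBR1 and CBR3 all coding windows were unique by either criterion, and for AKR1B1 and PTGR1 at least 95.8% were. AKR1B10 had 96.5% and 70.7%.

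**Figure D2:**
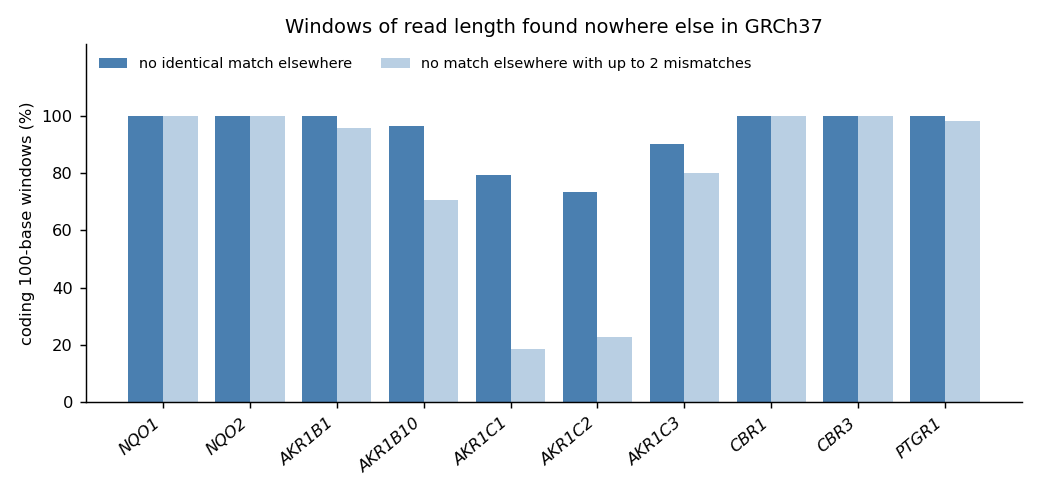
Share of the 100-base coding windows of each member, in percent, that match nowhere else in GRCh37 or in another gene's transcripts. Dark bars require an identical match and light bars allow up to 2 mismatches, at which AKR1C1 keeps 18.5% and AKR1C2 22.8% of their windows.

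AKR1C1 had the largest fold change of the members. It had 22 and 20 counts in vehicle and 65 and 62 in Liq, or 0.535, 0.534, 1.83 and 1.24 CPM. The Liq samples were 2.31-fold to 3.42-fold above the vehicle samples, and differed from each other by 1.48-fold. The log2 fold change was 1.48 (SE 0.29, 95% interval 0.88 to 2.08, adjusted p = 0.0005105 from edgeR), a fold change between 1.84 and 4.24. AKR1C1 ranked at percentile 10 of tested genes by mean level. Without Liq replicate 1 its log2 fold change was 1.20. With offsets that follow the expression level it was 1.255 (adjusted p = 0.002537 from edgeR). These offsets also gave lower values than the main fit for AKR1C2 (0.3954) and AKR1C3 (0.7689), and a higher one for NQO1 (0.7547). The count that can be assigned to AKR1C1 is reported as uncertain because of its copies.

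AKR1C3 carried most of the counts of the cluster. It had 178 and 114 counts in vehicle and 224 and 373 in Liq, which were 4.33, 3.04, 6.30 and 7.43 CPM. Both Liq samples exceeded both vehicle samples, although the vehicle samples themselves differed by 1.42-fold and the nearest Liq and vehicle samples by 1.46-fold. The log2 fold change was 0.90 (SE 0.16, 95% interval 0.58 to 1.22, adjusted p = 0.0001225 from edgeR). It lay between 0.67 and 1.18 when each sample was left out in turn and passed the threshold each time.

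AKR1C2 had 16 and 18 counts in vehicle and 26 and 32 in Liq, or 0.389, 0.481, 0.731 and 0.638 CPM. The groups did not overlap, but the log2 fold change of 0.64 had a wide 95% interval, from -0.07 to 1.36, and did not pass the threshold (SE 0.35, adjusted p = 0.1835 from edgeR). A rise as large as that of AKR1C3 lies within this interval, and a difference between AKR1C2 and AKR1C3 was not tested. The summed counts of the 3 genes were 216 and 152 in vehicle and 315 and 467 in Liq. Their log2 fold change was 0.96 (SE 0.14, 95% interval 0.68 to 1.24, adjusted p = 8.491e-06 from edgeR).

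The proportions within the cluster overlapped between the groups for AKR1C2 and AKR1C3, and for AKR1C1 they were barely apart. AKR1C3 made up 82.4% and 75% of the summed counts in vehicle and 71.1% and 79.9% in Liq. AKR1C2 made up 7.41% and 11.8% in vehicle and 8.25% and 6.85% in Liq. AKR1C1 made up 10.2% and 13.16% in vehicle and 20.6% and 13.28% in Liq. The exact 95% binomial intervals of AKR1C1 were 6.49% to 15.01% and 8.23% to 19.6% in vehicle, and 16.3% to 25.5% and 10.3% to 16.7% in Liq. The interval of Liq replicate 1 lay above that of vehicle replicate 1 and overlapped that of vehicle replicate 2, and the 2 Liq samples differed from each other more than Liq replicate 2 did from the vehicle samples. Without Liq replicate 1 the log2 fold changes of AKR1C1 and AKR1C3 were 1.20 and 1.00, against 1.48 and 0.90 with it, and their difference was not tested.

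**Figure D3:**
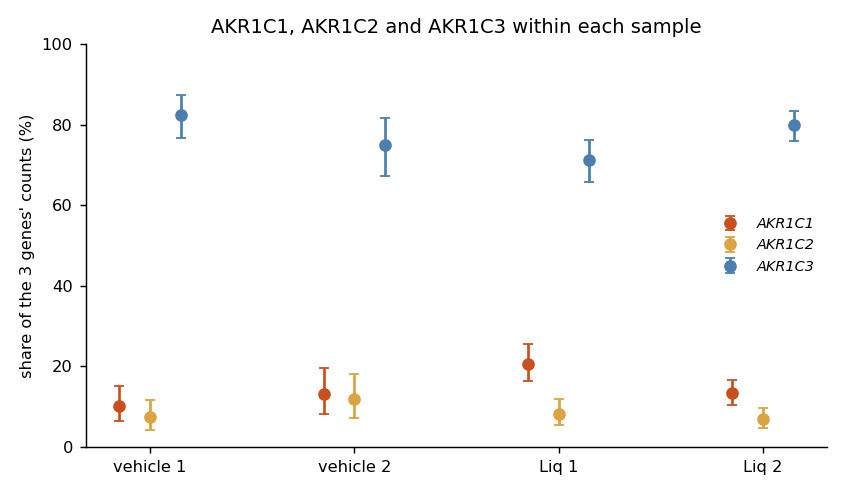
Share of AKR1C1, AKR1C2 and AKR1C3 in the summed counts of the 3 genes, in percent, for each sample. Points are the measured shares and bars the exact 95% binomial intervals, and AKR1C3 holds 71.1% to 82.4% in all samples.

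The bases before the start sites of AKR1C1 and AKR1C2 were also closely alike, and they are shown because these 2 genes give the largest and the least certain response of the cluster. The 250 bases before each start site aligned over 254 positions, of which 245 were identical. Of the 9 others, 8 were gaps near the ends, where the 2 stretches are offset. Capitals in AKR1C2 mark bases that differ from AKR1C1 or have no partner there in the alignment. The stretches are chr10:4963165-4963414 (plus strand) for AKR1C1 and chr10:5003858-5004107 (minus strand) for AKR1C2, from RefSeq on GRCh38.p14.
AKR1C1: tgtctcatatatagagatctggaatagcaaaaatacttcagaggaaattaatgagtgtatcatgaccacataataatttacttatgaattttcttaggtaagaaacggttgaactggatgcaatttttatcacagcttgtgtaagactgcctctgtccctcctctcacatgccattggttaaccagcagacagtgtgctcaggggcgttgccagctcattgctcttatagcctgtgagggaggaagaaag
AKR1C2: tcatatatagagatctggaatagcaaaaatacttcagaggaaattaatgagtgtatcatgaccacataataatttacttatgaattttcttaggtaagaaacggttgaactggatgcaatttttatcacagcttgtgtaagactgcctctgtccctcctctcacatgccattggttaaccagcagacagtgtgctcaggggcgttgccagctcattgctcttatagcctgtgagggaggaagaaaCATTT
The same stretch of AKR1C3 was identical to that of AKR1C1 at 69.2% of aligned positions.

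Of the 10 members, 8 had a promoter in the RefSeq table, from 250 bases before to 50 bases after each start site. These promoters were searched on both strands for the core of the antioxidant response element (TGACNNNGC), the core of the xenobiotic response element bound by the aryl hydrocarbon receptor (GCGTG) and the palindromic estrogen response element. The first was found in CBR1 only, against 13.3% of all 35116 promoters. Counted per gene, 19.5% of the 9268 tested genes with a promoter had it in any of their promoters. The xenobiotic core was found in NQO1, NQO2, AKR1B1 and CBR1, 4 of the 8 genes, against 36.5% of all promoters. Counted per gene, 58.7% of the tested genes with a promoter had it, so the share of the members was not above that of tested genes. The estrogen response element was found in none, against 0.057% of all promoters. The promoters of AKR1C1, AKR1C2, AKR1C3 and PTGR1 held none of these letters. Such a match is not a binding site, and elements farther from the gene were not searched. The 250 bases before the CBR1 start site are given as the single case with an antioxidant core, at chr21:36069774-36070023 (plus strand, GRCh38.p14). Capitals mark that core on the reverse strand and a xenobiotic core nearer the start site.
CBR1: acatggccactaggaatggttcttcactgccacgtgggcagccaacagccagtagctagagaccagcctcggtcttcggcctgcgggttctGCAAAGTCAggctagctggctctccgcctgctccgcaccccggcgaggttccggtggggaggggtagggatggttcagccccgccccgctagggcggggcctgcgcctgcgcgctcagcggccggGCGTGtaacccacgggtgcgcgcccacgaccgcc

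CBR1 and CBR3 encode carbonyl reductases of the short-chain dehydrogenase family, unrelated in fold to the aldo-keto reductases. CBR1 reduces prostaglandin E2, quinones and anthracycline drugs, and CBR3 is its less active neighbour. CBR1 lies on chromosome 21 from 37442239 to 37445464 and had 2978 and 2470 counts in vehicle and 2794 and 3663 in Liq. Its levels of 72.4, 66.0, 78.6 and 73.0 CPM put both Liq samples above both vehicle samples, but by 1.01-fold at the closest. The log2 fold change was 0.13 (SE 0.08, 95% interval -0.03 to 0.29, adjusted p = 0.2520 from edgeR). CBR3 lies on the same chromosome from 37507377 to 37518860 and had 526 and 436 counts in vehicle and 396 and 599 in Liq. Its levels of 12.8, 11.7, 11.1 and 11.9 CPM overlapped between the groups, and the log2 fold change was -0.08 (SE 0.11, 95% interval -0.30 to 0.14, adjusted p = 0.6316 from edgeR). For both genes the interval excludes a change of 1.5-fold in either direction. The annotated span of SETD4 crosses CBR1, and reads that overlapped 2 genes were not counted. Over all genes these were 0.5445% to 0.5573% of all tallied entries, those not uniquely aligned included. The share lost at CBR1 was not examined.

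PTGR1 encodes prostaglandin reductase, which inactivates oxidized prostaglandins and leukotriene B4 and reduces reactive alkenals. It lies on the minus strand of chromosome 9 from 114312002 to 114362173 and had 3133 and 2942 counts in vehicle and 3639 and 5688 in Liq. The levels were 76.2, 78.6, 102.3 and 113.3 CPM, with both Liq samples 1.30-fold to 1.49-fold above the vehicle samples. The mean rose from 77.4 ± 1.7 CPM to 107.8 ± 7.8 CPM (SD, n = 2), or by 0.48 on the log2 scale (SE 0.08, 95% interval 0.32 to 0.64, adjusted p = 5.227e-05 from edgeR). It stayed under 1.5-fold in every alternative fit, at 0.40 to 0.55 on the log2 scale, and passed the adjusted p-value in each of them.

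**Figure D4:**
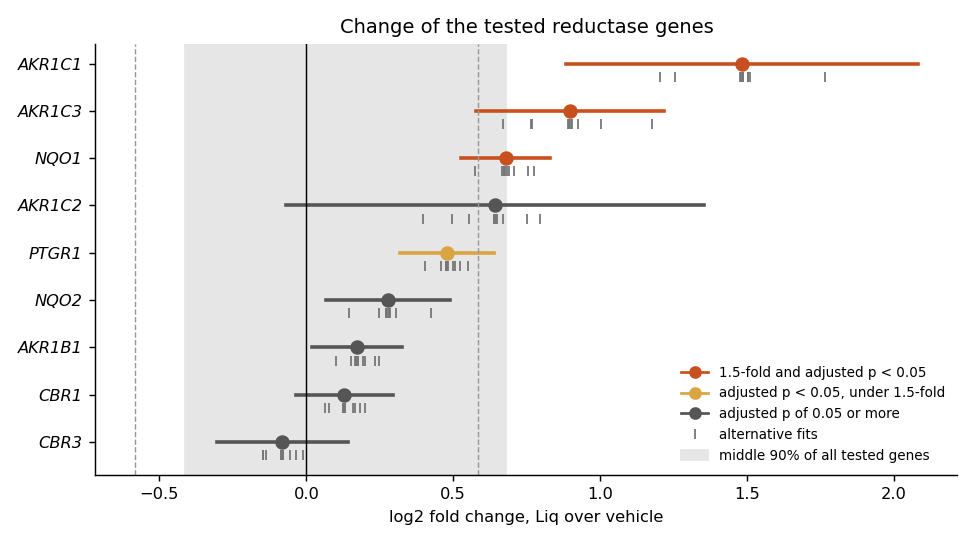
Log2 fold change of Liq over vehicle for the 9 tested members, with 95% intervals (n = 2 per group). Orange marks genes called changed, yellow PTGR1, and grey genes that did not pass the adjusted p-value. Ticks are the alternative fits, dashed lines 1.5-fold and the shaded band the middle 90% of all tested genes. AKR1C1 at 1.48, AKR1C3 at 0.90 and CBR3 at -0.08 span the range.

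Levels between genes were compared per length. Per kb of the annotated main transcript, the vehicle means were 93.1 CPM for AKR1B1, 68.9 for NQO1, 57.3 for CBR1 and 48.4 for PTGR1. With Liq they were 104.9 for AKR1B1, 110.3 for NQO1, 62.7 for CBR1 and 67.4 for PTGR1. NQO1 thus lay below AKR1B1 in both vehicle samples (69.5 and 68.3 against 97.7 and 88.4 CPM per kb). In Liq the order of these 2 genes differed between samples (102.7 and 117.9 against 106.3 and 103.5). This order depends on the length taken, since per kb of coding sequence NQO1 led already in vehicle, at 211.4 against 133.6 CPM. That division favours NQO1, because reads were counted over whole transcripts. Coding sequence makes up 822 of 2521 bases in NQO1 and 948 of 1361 in AKR1B1. NQO2 and CBR3 followed at 17.0 and 12.2 CPM per kb of transcript in vehicle, and AKR1C3 at 3.11. For the AKR1C genes the coding length was used, because the annotated AKR1C1 transcript is 6543 bases long. Their vehicle levels per kb of coding sequence were 0.552 CPM for AKR1C1, 0.449 for AKR1C2 and 3.81 for AKR1C3. When each was divided by the share of coding windows without a match at up to 2 mismatches, they became 2.98, 1.97 and 4.76 in vehicle and 8.54, 3.10 and 8.86 in Liq. Before this division the Liq levels were 1.58 for AKR1C1, 0.706 for AKR1C2 and 7.08 for AKR1C3. The counts also hold reads from outside the coding sequence. Without a match at up to 2 mismatches were 3610 of the 6444 windows of the AKR1C1 transcript, but only 161 of its 870 coding windows. The divided levels can therefore be too high for AKR1C1 and AKR1C2, whose transcripts are long, and compare poorly with that of AKR1C3. By group means AKR1C3 led the cluster in both groups by each reckoning, and the size of its lead over AKR1C1 depended on the reckoning. Divided by the share of coding windows without an identical match, AKR1C3 and AKR1C1 stood at 7.85 and 1.99 in Liq. In vehicle they stood at 4.22 and 0.696. Only after the division at up to 2 mismatches were the Liq means of AKR1C3 and AKR1C1 close, at 8.86 and 8.54. The order of these 2 genes then differed between the Liq samples, which themselves differed by 1.48-fold for AKR1C1.

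The genes next to the members were examined to see whether whole regions moved. Among the 2 nearest tested genes on each side of each locus, and SETD4 within the CBR region, 25 genes in all, 1 was called and it was AKR1E2, an aldo-keto reductase beside the AKR1C cluster. It had 21 and 26 counts in vehicle and 43 and 47 in Liq (log2 fold change 0.82 with an SE of 0.30, edgeR adjusted p = 0.04922). The other 24 had log2 fold changes of -0.24 to 0.27. NOB1 and NFAT5, on either side of NQO1, had log2 fold changes of -0.06 and -0.08 with adjusted p-values of 0.6378 and 0.5168 (edgeR). NET1, beyond AKR1C3, and RUNX1, before CBR1, fell by less than 1.5-fold, by 0.19 and 0.24 on the log2 scale (adjusted p = 0.04544 and 0.02354 from edgeR).

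**Figure D5:**
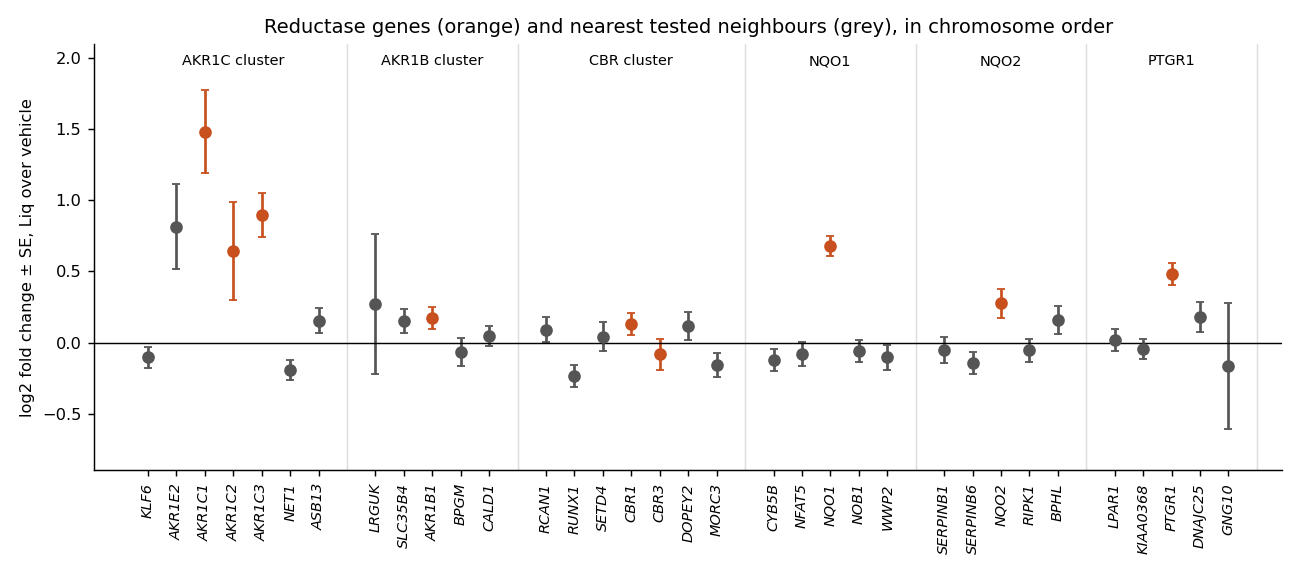
Log2 fold change with SE (n = 2 per group) of the tested members in orange and of their nearest tested neighbours in grey, ordered along the chromosome within each locus. NQO1 at 0.68 stands between neighbours at -0.12 to -0.06.

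Calls among the other reductases and in the lists below are to be read beside those over all tested genes. Of all tested genes 6.45% were called in either direction, 4.29% upward and 2.16% downward. Of 12 further aldo-keto reductase genes 7 were tested, of which AKR1E2 was called and KCNAB2, a potassium channel subunit of this fold, fell by 0.39 on the log2 scale (adjusted p = 0.0003435 from edgeR). AKR1A1, the general aldehyde reductase, averaged 82.5 ± 4.0 CPM without Liq and 91.9 ± 4.7 CPM with it (SD, n = 2, adjusted p = 0.1525 from edgeR). AKR1C4 and AKR1D1, which are liver enzymes, had 0 to 3 counts and 0 counts. Of 33 tested carbonyl, enone and quinone reductases outside the members, 5 passed the adjusted p-value, all upward, against 12.6% of all tested genes upward. Of these 5, 1 was called. That gene was DHRS3, a retinal reductase, with 245 and 218 counts in vehicle and 377 and 542 in Liq (log2 fold change 0.86 with an SE of 0.12, edgeR adjusted p = 6.036e-06). PTGR2, the relative of PTGR1, rose by 1.36-fold, a log2 fold change of 0.44 (adjusted p = 0.001127 from edgeR). These 33 genes had a median log2 fold change of 0.10 and the 7 aldo-keto reductases one of 0.01. PTGR2, AKR1A1, KCNAB2, AKR1C4 and AKR1D1 were picked out after their values had been seen.

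Among partners of the AKR1C enzymes in steroid and prostanoid metabolism, 19 genes were tested, of which 2 were called upward and 1 downward. PTGS2, the inducible cyclooxygenase, fell from 16.4 ± 0.7 CPM to 7.7 ± 0.5 CPM (SD, n = 2), which was -1.09 on the log2 scale (adjusted p = 3.104e-08 from edgeR). HSD17B8, a hydroxysteroid dehydrogenase, rose by 0.70 on the log2 scale (adjusted p = 0.0003286 from edgeR). PTGES, a prostaglandin E synthase, had 2 and 3 counts in vehicle and 10 and 14 in Liq (adjusted p = 0.02333 from edgeR). SRD5A1, a steroid reductase whose products AKR1C2 acts on, had a log2 fold change of 0.03. Of 4 tested partners of AKR1B1 in the polyol pathway, 0 were called by edgeR and 0 had an adjusted p-value under 0.05. Those with the smallest p-values, DCXR and DAK, had log2 fold changes of 0.21 and 0.15.

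NRF2 targets outside the members rose in most cases. Of 26 tested, 15 were called and 21 passed the adjusted p-value, all upward, with a median log2 fold change of 0.66. The 6 called with the smallest p-values were TXNRD1, SLC7A11, FTH1, ABCC3, EPHX1 and GCLM. SLC7A11, the cystine transporter, had a log2 fold change of 1.36 and TXNRD1, thioredoxin reductase, one of 1.00. ABCC3, an export pump for conjugates, had one of 1.53, FTH1, ferritin heavy chain, 1.20 and EPHX1, epoxide hydrolase, 1.10. HMOX1, heme oxygenase, had 394 and 338 counts in vehicle and 680 and 1049 in Liq (log2 fold change 1.11, adjusted p = 1.23e-08 from edgeR), and GCLM, a subunit of glutathione synthesis, had a log2 fold change of 0.94. NQO1 at 0.68 was close to the median of that list, and CBR1 at 0.13 lay well below it. The list was written with earlier results of these data known, so its direction is no independent evidence. HMOX1 was picked out after its values had been seen.

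Targets of the aryl hydrocarbon receptor were also looked up, and a part of this receptor in the change of NQO1 was not tested. Of 8 such genes outside the members 4 were tested, and 3 were called downward. The other was NFE2L2, given below. AHRR, the repressor of the receptor, averaged 38.7 ± 3.1 CPM in vehicle but 17.3 ± 1.7 CPM with Liq (SD, n = 2), a difference of -1.16 on the log2 scale (adjusted p = 1.393e-09 from edgeR). TIPARP had a log2 fold change of -0.67 and CYP1B1 one of -1.22, the latter from 33 and 29 counts in vehicle to 12 and 17 in Liq. CYP1A1 had 6 and 2 counts in vehicle and 1 in each Liq sample. The mRNA of the receptor itself, AHR, went the other way, with 825 and 702 counts in vehicle and 1074 and 1751 in Liq (log2 fold change 0.75, adjusted p = 2.535e-06 from edgeR). Of the genes that control the NRF2 response, NFE2L2, which encodes NRF2, fell by 0.27 on the log2 scale (adjusted p = 0.008329 from edgeR). KEAP1 had a log2 fold change of 0.06 (adjusted p = 0.6359 from edgeR). MAFF, a small MAF partner of NRF2, fell by 0.95 on the log2 scale, the largest decrease among the 9 tested regulators.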

How the data were processed

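Total RNA of 2 vehicle and 2 Liq samples was sequenced by the authors as 100-base single-end TruSeq libraries. Per the labels, reads were demultiplexed with bcl2fastq 2.17.1.14, aligned to hg19 with TopHat2 (version 2.0.8b) and counted with HTSeq. The deposited values are raw read counts per gene symbol, neither normalized nor pooled. Aligner settings and strand use are not given in the sources used here. Lines that tally uncounted reads were kept out of the tests.

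Counts were fitted in R 4.3.3 with edgeR 4.0.16 (filterByExpr at min.count 10 and min.total.count 15, TMM, glmQLFit, glmQLFTest, no replicate block). The SE is the size of the log2 fold change divided by the square root of F. Alternatives were other normalizations (loess span 0.3), filters and thresholds, DESeq2 1.42.0, the replicate block and each sample left out. Counts for Liq against vehicle were also simulated with 200 of 13546 genes changed by 2-fold or more, up or down. By the adjusted p-value alone, the main fit recovered 186 with 10 false calls. How often the 1.5-fold rule finds changes as small as those of most members was not tested.

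Read-length windows of the MANE Select transcripts were searched in GRCh37, which has the coordinates of hg19, with seeds of 32 bases. Neighbours were matched by symbol and RefSeq synonym. Sequences were aligned with Biopython 1.88. All 10 members are named, and from each other list the called genes by smallest p-value, up to 6, or the 2 with the smallest p-value where none was called. HMOX1, AKR1A1, AKR1B15, AKR1C4, AKR1D1, KCNAB2, PTGR2, SRD5A1, CYP1A1, NFE2L2, KEAP1 and ESR2 fall outside this rule and were chosen after their values were seen. Some genes of the lists are not reported here. The members and lists were chosen with earlier results of these data known.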

Additional observations from a re-analysis of the deposited data

How the results depend on the processing

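The 3 calls among the members held under every normalization, filter and test tried, with exceptions at other thresholds and with 1 sample left out. With a fold change of at least 2, 1 member (AKR1C1) and 328 genes were called, and with no fold-change threshold 3245 genes. The DESeq2 Wald test called 570 genes. Leaving out each sample in turn gave 2 to 3 called members and 659 to 979 called genes, and the member lost was NQO1 without Liq replicate 2. With the replicate number as a block 3 members and 898 genes were called. The block moved AKR1B1 to an adjusted p-value of 0.01058 and NQO2 to 0.0183 (edgeR). Other settings that also brought these 2 genes under 0.05 stand beside their values. The labels give same-numbered samples nothing in common but the number. Their deviations from the group means had a correlation of 0.0483 over genes, which cannot show whether the samples were paired. No log2 fold change of a tested member reversed in any alternative. Depth limits the statements on AKR1C1, AKR1C2 and AKR1B10, with at most 65 counts in any sample.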
